A study of Mus musculus with 9 samples.

Results

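The transcription factor NF-kB and its regulators were examined through 10 genes, each taken as every probe whose annotated symbol equalled the gene name regardless of case. The annotation writes them in capitals, as the subunit genes NFKB1, NFKB2, REL, RELA and RELB, the inhibitor and feedback genes NFKBIA, BCL3 and TNFAIP3, and the further target genes BIRC3 and PTGS2, and the mouse spelling is used from here on. Each gene had 1 probe, which made 10 of the 26423 probes on the array. RNA labelled with Cy5 was measured on 9 one-colour arrays of tissue from female BALB/c mice, in 3 groups of 3 arrays. The IMQ+vanillin mice had imiquimod on the shaved back and took vanillin, the aldehyde that gives vanilla its flavour, by mouth at 100 mg/kg. The IMQ mice had imiquimod on the shaved back, and the mock mice had Vaseline cream there, each for 7 days. Imiquimod activates the nucleic acid sensor toll-like receptor 7 and is used to induce psoriasis-like inflammation in mouse skin. The labels give no age, no oral vehicle for the IMQ or mock mice and no group with vanillin alone, so an effect of dosing by mouth and an effect of vanillin cannot be told apart. Whether each array stands for a mouse of its own is not stated either, and the p-values therefore rest on the spread between arrays alone, which may be technical.

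NF-kB proteins are dimers held inactive in the cytoplasm by IkB proteins. Signals from toll-like, interleukin-1 and tumour necrosis factor receptors activate IkB kinases, the inhibitor is degraded, and the dimer enters the nucleus (the canonical route, mostly dimers of the Nfkb1 product with Rela or Rel). A slower route through the kinase encoded by Map3k14 processes the Nfkb2 product and releases dimers with Relb. Active NF-kB induces its own inhibitors, among them Nfkbia and Tnfaip3, as well as several subunits, survival factors such as Birc3 and inflammatory enzymes such as Ptgs2. In skin the pathway works in keratinocytes as well as in immune cells. The arrays measure transcripts, so they do not show where the proteins were in the cell or whether they were active.

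The start windows of the members are shown because several of these genes are known targets of NF-kB as well as its parts. RefSeq windows from 250 bases before to 50 bases after an annotated transcript start (build GRCm38.p6) were listed for 8 of the 10 members, with 11 windows in all. Nfkb1 and Relb had none. Both strands were searched for the degenerate NF-kB consensus of 10 bases, and overlapping matches were merged. Matches lay in 7 of the 11 windows, which belonged to 5 genes, while 4.51% of all 32851 windows held at least 1 match. A match is a description of the letters and not evidence of binding. The windows of 5 genes follow, 5′ to 3′ on the strand of the gene, with matches in capitals.
Nfkbia, chr12:55492598-55492897, minus strand: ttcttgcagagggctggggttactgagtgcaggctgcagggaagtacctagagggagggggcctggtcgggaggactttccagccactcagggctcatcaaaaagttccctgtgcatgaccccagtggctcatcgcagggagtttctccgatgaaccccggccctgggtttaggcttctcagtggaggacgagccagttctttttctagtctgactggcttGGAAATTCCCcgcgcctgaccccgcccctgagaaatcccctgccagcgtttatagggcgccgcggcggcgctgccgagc
Nfkb2 first start, chr19:46304487-46304786, plus strand: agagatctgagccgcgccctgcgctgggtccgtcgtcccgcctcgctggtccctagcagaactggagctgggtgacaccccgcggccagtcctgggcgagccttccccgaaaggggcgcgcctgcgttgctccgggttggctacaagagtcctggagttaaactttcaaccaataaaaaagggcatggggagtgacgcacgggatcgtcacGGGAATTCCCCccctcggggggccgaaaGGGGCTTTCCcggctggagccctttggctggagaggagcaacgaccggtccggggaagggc
Rel, chr11:23770920-23771219, minus strand: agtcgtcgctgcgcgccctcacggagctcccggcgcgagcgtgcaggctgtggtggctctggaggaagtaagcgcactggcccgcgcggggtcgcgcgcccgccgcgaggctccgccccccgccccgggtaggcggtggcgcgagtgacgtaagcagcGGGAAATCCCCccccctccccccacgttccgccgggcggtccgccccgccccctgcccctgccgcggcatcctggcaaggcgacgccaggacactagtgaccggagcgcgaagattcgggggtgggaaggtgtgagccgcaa
Bcl3, chr7:19822706-19823005, minus strand: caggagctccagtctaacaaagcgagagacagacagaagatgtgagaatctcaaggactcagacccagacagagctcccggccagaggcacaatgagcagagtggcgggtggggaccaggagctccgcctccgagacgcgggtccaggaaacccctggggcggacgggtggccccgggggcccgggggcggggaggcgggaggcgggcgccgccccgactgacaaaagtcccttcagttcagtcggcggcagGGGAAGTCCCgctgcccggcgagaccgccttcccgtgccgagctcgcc
Tnfaip3 first start, chr10:19015361-19015660, minus strand: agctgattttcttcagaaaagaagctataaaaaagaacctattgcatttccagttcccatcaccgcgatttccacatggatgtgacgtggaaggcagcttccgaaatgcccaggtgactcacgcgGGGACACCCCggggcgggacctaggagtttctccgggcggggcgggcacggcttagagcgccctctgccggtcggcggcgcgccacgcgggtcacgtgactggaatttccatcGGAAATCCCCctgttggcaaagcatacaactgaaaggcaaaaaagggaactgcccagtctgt

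In these windows the Nfkbia match GGAAATTCCC began 29 bases before the start, and the Bcl3 match GGGAAGTCCC began at base 3 of the transcript. Rel held 1 merged match and the first Nfkb2 start held 2, each within 100 bases before the start. The first Tnfaip3 start held GGGACACCCC 125 bases and GGAAATCCCC 12 bases before it. The second Nfkb2 start held 2 matches and the third 1, and the third one's match GGGACTTTCC is a letter stretch that the overlapping second window also holds. The windows of Rela, Birc3 and Ptgs2 and the second start of Tnfaip3 held no match, which says only that these letters are not in those 300 bases. The genes without a printed window lie, in the same build, at chr3:135584655-135691969 (Nfkb1), chr7:19606217-19629438 (Relb), chr19:5637442-5648134 (Rela), chr9:7847468-7873205 (Birc3) and chr1:150100031-150108234 (Ptgs2), and the positions of the array probes within the transcripts are not given in the sources.

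**Figure D1:**
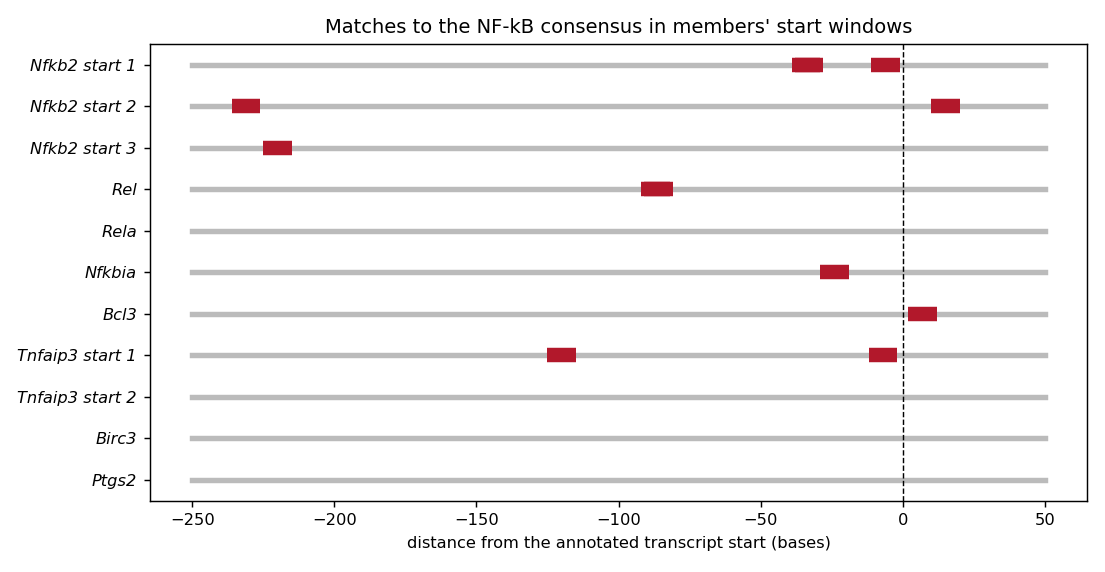
Positions of matches to the NF-kB consensus (red) in the 300-base start windows (grey) of the 8 members with a window, as distance in bases from the annotated transcript start (dashed line). Matches stand in 7 of 11 windows, those of Nfkb2, Rel, Nfkbia, Bcl3 and the first start of Tnfaip3.

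Array medians lay between 629 and 631 intensity units, because the deposited distributions had been equalised, so a change of total signal cannot be seen. Arrays of a group correlated at 0.984 to 0.996 in log2 intensity, and arrays of different groups at 0.952 to 0.980 (across probes, which do not count as replicates). The tissue is labelled skin while the extraction text names muscle. All 6 keratinocyte markers and all 5 measured skeletal muscle markers were brighter than the array median, with median percentiles of 99.7 and 98.7. These are bulk samples, so fewer cells of a type and less RNA per cell cannot be told apart. Each level below is a probe intensity, which is compared between arrays and not between genes. The members lay between the 42.3rd percentile of mean intensity among probes (Rel) and the 97.5th (Nfkbia), and only Rel and Ptgs2 (percentile 49.5) lay below the middle. Calls rest on an adjusted p under 0.05 in limma, adjusted over all probes.

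In IMQ skin Bcl3, Birc3, Nfkbia, Rel, Nfkb1 and Ptgs2 were higher, Tnfaip3 and Relb were lower, and Nfkb2 and Rela were not called. The rises ran from 1.65-fold (Ptgs2) to 3.30-fold (Bcl3). Of the 10 members 6 were called higher and 2 lower, where 53.6% of all probes were called, 24% higher and 29.6% lower. Bcl3 and Birc3 were called and at least 2-fold higher, as 13.5% of probes were called by at least 2-fold in either direction. The median change of the members was 0.79 log2 units, against -0.04 over all probes. For 9 members the IMQ and mock arrays did not overlap, which was also true of 68% of all probes.

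Between IMQ+vanillin and IMQ skin 3 of the 10 genes were called. Ptgs2 and Nfkb2 were higher and Nfkbia was lower in IMQ+vanillin than in IMQ skin, by 1.40-fold to 1.52-fold, and 7 members were not called. None of the 10 changed by 2-fold, against 4.78% of probes called by at least 2-fold. Over all probes 24.3% were called higher and 17% lower, 41.2% together. Both counts depend on the arrays and the fit. The 10898 probes called fell to 6923 without IMQ replicate 1 and to 6576 without IMQ replicate 3, with 3 members called in each. With array weights 5 members and 16208 probes were called, and with an intensity trend and robust prior 5 members and 11217 probes. The count of members is therefore not read as above or below that of the array. For 7 members the arrays of these groups did not overlap, as for 58.5% of all probes. The median change was 0.10 log2 units, against 0.03 over all probes.

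Against mock, IMQ+vanillin skin had 7 members called higher and 1 lower, where 26.7% of probes were called, 11.9% higher and 14.7% lower. Bcl3, Ptgs2, Nfkb1, Birc3 and Rel were at least 2-fold higher, as 4.48% of probes were called by at least 2-fold in either direction. Nfkb2 and Nfkbia were higher by less, and Tnfaip3 was lower. The median change was 0.85 log2 units, against 0.01 over all probes. The groups did not overlap for 9 members, as for 37.8% of all probes. The 3 comparisons share arrays, so their values for a gene are not independent of each other.

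**Figure D2:**
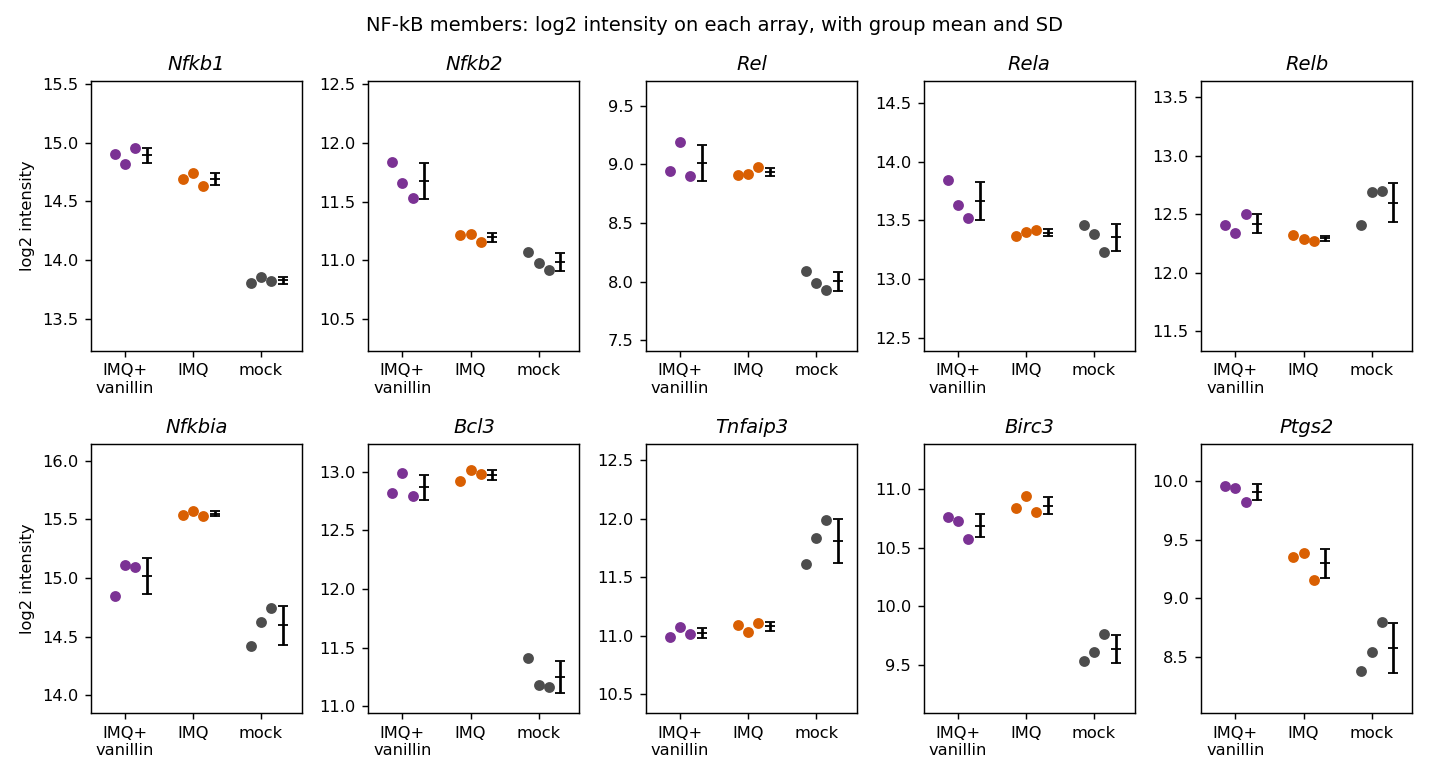
Log2 intensity of the 10 members on each array (points) with the group mean (dash) and SD (bar, n = 3 arrays) beside them, for IMQ+vanillin, IMQ and mock skin. Every panel spans the same number of log2 units. Bcl3, Birc3, Rel, Nfkb1, Nfkb2, Nfkbia and Ptgs2 sit in both imiquimod groups above all mock arrays, while Tnfaip3 sits below them.

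Among the subunits, Nfkb1 and Rel were higher in both imiquimod groups. Nfkb1 encodes the precursor of the DNA-binding p50 subunit. Its intensity was 30690, 28921 and 31659 in IMQ+vanillin skin, 26489, 27389 and 25416 in IMQ skin, and 14266, 14793 and 14469 in mock skin. The 3 groups did not overlap, and the mock arrays were the lowest. The change was 0.86 ± 0.08 log2 units for IMQ against mock (SE, adjusted p = 4.50e-05) and 1.07 ± 0.08 for IMQ+vanillin against mock (SE, adjusted p = 2.73e-05). Between IMQ+vanillin and IMQ it was 0.20 (95% interval 0.03 to 0.38, adjusted p = 0.0659), which was not called.

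Rel encodes the subunit c-Rel, best known from lymphocytes and myeloid cells. Its intensity was 493, 584 and 478 in IMQ+vanillin skin, 481, 484 and 504 in IMQ skin, and 273, 254 and 244 in mock skin. Both imiquimod groups lay above every mock array and overlapped each other. Rel was 0.93 ± 0.10 log2 units higher in IMQ than in mock skin (SE, adjusted p = 0.000101). The difference between IMQ+vanillin and IMQ was 0.08 (95% interval -0.15 to 0.30, adjusted p = 0.560).

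Nfkb2, which encodes the precursor of the p52 subunit of the slower route, was higher with vanillin. Its intensity was 3659, 3235 and 2964 in IMQ+vanillin skin, 2376, 2388 and 2278 in IMQ skin, and 2154, 2011 and 1938 in mock skin. All IMQ+vanillin arrays lay above all others, and the IMQ arrays lay just above the mock arrays. The change was 0.48 ± 0.10 log2 units for IMQ+vanillin against IMQ (SE, adjusted p = 0.00613) and 0.69 ± 0.10 against mock (SE, adjusted p = 0.00103). For IMQ against mock it was 0.21 (95% interval -0.01 to 0.43, adjusted p = 0.104) and was not called, though array weights called it (adjusted p = 0.00237). That setting also raised the calls over all probes from 14157 to 19830.

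Rela encodes the main activating subunit p65, which carries a transactivation domain. Its intensity was 14707, 12683 and 11739 in IMQ+vanillin skin, 10526, 10837 and 10929 in IMQ skin, and 11240, 10685 and 9611 in mock skin. The IMQ and mock arrays overlapped, with a change of 0.04 (95% interval -0.20 to 0.28, adjusted p = 0.790). IMQ+vanillin arrays were above all others without passing the test, at 0.27 against IMQ (95% interval 0.03 to 0.51, adjusted p = 0.0692) and 0.31 against mock (95% interval 0.07 to 0.55, adjusted p = 0.0628). Rela was called higher against IMQ in 3 of 16 alternatives, with adjusted p over all 16 from 0.00275 (array weights) to 0.205, and without IMQ+vanillin replicate 3 it was 0.0261. Against mock it was called in 5 of 16, with adjusted p from 0.00874 (array weights) to 0.175, among them without mock replicate 1 (0.0471) and without IMQ+vanillin replicate 3 (0.0289).

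Relb, the partner of the Nfkb2 product, had an intensity of 5441, 5197 and 5804 in IMQ+vanillin skin, 5111, 5009 and 4953 in IMQ skin, and 5424, 6611 and 6640 in mock skin. The IMQ arrays lay under all others, while IMQ+vanillin and mock arrays overlapped. It was lower in IMQ than in mock skin by a change of -0.30 ± 0.10 log2 units (SE, adjusted p = 0.0314). This call was lost with the replicate number as a block (adjusted p = 0.0523), without mock replicate 2 (0.103) or 3 (0.0930) and without any 1 of IMQ replicates 1 (0.0747), 2 (0.0789) and 3 (0.0919). The IMQ+vanillin against IMQ change was 0.12 (95% interval -0.11 to 0.35, adjusted p = 0.349).

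Among the inhibitors, Nfkbia differed between all 3 groups. It encodes IkB alpha, the inhibitor that is degraded on activation and made again as a direct target, and a match to the consensus stands in the start window printed above. Its intensity was 29392, 35454 and 34944 in IMQ+vanillin skin, 47580, 48635 and 47284 in IMQ skin, and 21916, 25253 and 27398 in mock skin. The groups did not overlap, with IMQ highest and mock lowest. Nfkbia was 1.93-fold higher in IMQ than in mock skin, at 0.95 ± 0.11 log2 units (SE, adjusted p = 0.000171). In IMQ+vanillin skin it was 1.44-fold lower than in IMQ skin, at -0.53 ± 0.11 (SE, adjusted p = 0.00703).

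Nfkbia in IMQ+vanillin skin was also higher than in mock skin, at 0.42 ± 0.11 log2 units (SE, adjusted p = 0.0225). That call was lost without mock replicate 2 (adjusted p = 0.0549), IMQ+vanillin replicate 2 (0.0732) or IMQ+vanillin replicate 3 (0.0525), and when the IMQ arrays were left out of the fit (0.0807). The rise in IMQ and the fall with vanillin kept their calls in all 16 alternatives run for each.

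Bcl3 had the largest change of the members for IMQ against mock and for IMQ+vanillin against mock. It encodes an atypical IkB protein of the nucleus that binds dimers of the Nfkb1 and Nfkb2 products and can act as a coactivator. Its intensity was 7239, 8131 and 7087 in IMQ+vanillin skin, 7770, 8264 and 8110 in IMQ skin, and 2720, 2319 and 2299 in mock skin. Every array of both imiquimod groups lay above every mock array, and the imiquimod groups overlapped. Bcl3 was 3.30-fold higher in IMQ than in mock skin, at 1.72 ± 0.10 log2 units (SE, adjusted p = 5.37e-06), and 3.06-fold higher in IMQ+vanillin than in mock skin. The IMQ+vanillin against IMQ change was -0.11 (95% interval -0.33 to 0.12, adjusted p = 0.412).

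Tnfaip3 went the other way. It encodes the ubiquitin-editing enzyme A20, which ends NF-kB signalling and is itself a known NF-kB target. Its intensity was 2039, 2157 and 2071 in IMQ+vanillin skin, 2189, 2098 and 2210 in IMQ skin, and 3129, 3651 and 4051 in mock skin. The mock arrays were all higher than those of both imiquimod groups, which overlapped. Tnfaip3 was 1.66-fold lower in IMQ than in mock skin, at -0.73 ± 0.10 log2 units (SE, adjusted p = 0.000469), and 1.72-fold lower in IMQ+vanillin than in mock skin (adjusted p = 0.000697). The IMQ+vanillin against IMQ change was -0.05 (95% interval -0.29 to 0.18, adjusted p = 0.712).

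Of the further target genes, Birc3, which encodes the apoptosis inhibitor and ubiquitin ligase cIAP2, was higher in both imiquimod groups, as Bcl3 was. Its intensity was 1737, 1693 and 1525 in IMQ+vanillin skin, 1832, 1963 and 1785 in IMQ skin, and 742, 780 and 871 in mock skin. All imiquimod arrays exceeded all mock arrays, and the IMQ+vanillin arrays lay just below the IMQ arrays. Birc3 was 2.33-fold higher in IMQ than in mock skin, at 1.22 ± 0.10 log2 units (SE, adjusted p = 2.30e-05), and 2.07-fold higher in IMQ+vanillin than in mock skin. The IMQ+vanillin against IMQ change was -0.17 (95% interval -0.39 to 0.05, adjusted p = 0.180).

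Ptgs2 encodes cyclooxygenase-2, the inducible enzyme of prostaglandin synthesis. Its intensity was 994, 981 and 907 in IMQ+vanillin skin, 653, 668 and 572 in IMQ skin, and 333, 372 and 446 in mock skin. The 3 groups did not overlap, with IMQ+vanillin highest and mock lowest. Ptgs2 was 0.72 ± 0.12 log2 units higher in IMQ than in mock skin (SE, adjusted p = 0.00115). In IMQ+vanillin skin it was higher than in IMQ skin by a further 0.61 ± 0.12 (SE, adjusted p = 0.00568), and 2.52-fold higher than in mock skin (adjusted p = 8.93e-05).

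**Figure D3:**
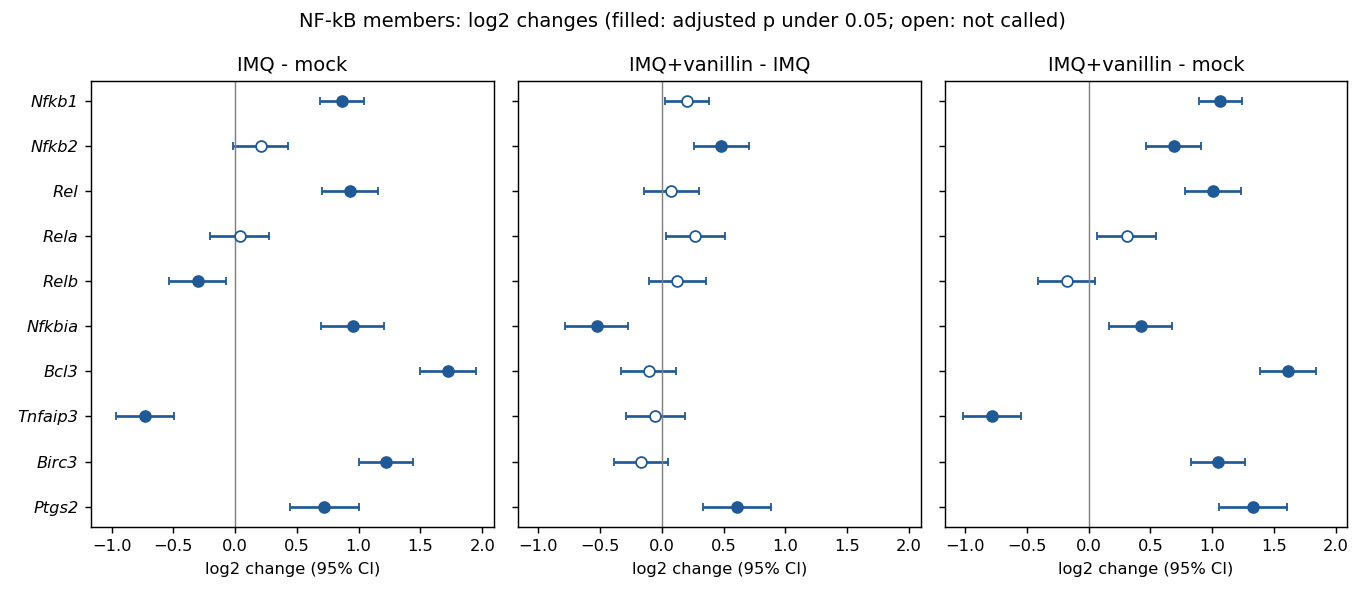
Log2 change of each member with its 95% confidence interval for IMQ minus mock (left), IMQ+vanillin minus IMQ (middle) and IMQ+vanillin minus mock (right), from the limma fit over 9 arrays; filled points were called at an adjusted p under 0.05. In the middle panel only Nfkb2, Nfkbia and Ptgs2 are filled, at 0.48, -0.53 and 0.61.

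Markers of other cell types moved beside these calls, and their part in the results was not tested. The counts take each marker by its brightest probe. Over all genes taken in that way, 26.2% were called higher and 16.6% lower for IMQ+vanillin against IMQ. Beside the calls for IMQ+vanillin against IMQ, 4 of 6 measured neutrophil markers were called higher and 0 lower, with summed intensities of 3506 to 3699 in IMQ+vanillin, 2255 to 2394 in IMQ and 1998 to 2212 in mock skin. Of these 6 markers 5 lay below the array median. Skeletal muscle markers were higher for 4 of 5 and lower for 0, with sums of 200371 to 222783 in IMQ+vanillin, 177878 to 181168 in IMQ and 209300 to 240551 in mock skin. Adipocyte markers were higher for 5 of 6 and lower for 1, with sums of 140979 to 155471 in IMQ+vanillin, 151388 to 154936 in IMQ and 189718 to 216471 in mock skin. These sums weigh mostly Fabp4, the brightest of the markers, which was the 1 called lower (-0.50). Endothelial markers gave 2 higher and 0 lower of 5, hair follicle markers 2 and 0 of 5, and fibroblast markers 2 and 1 of 6. Dendritic cell markers gave 3 higher and 2 lower of 6, T cell markers 1 and 2 of 5, and B cell markers 1 and 0 of 4. Macrophage and monocyte markers gave 1 higher and 1 lower of 5, keratinocyte markers 1 and 0 of 6, and mast cell markers 0 and 0 of 4. Pecam1 and Trp63 were not called on their brightest probes, while 1 other probe of each read 1.04 and 0.38 and was called higher. Cd8a was called lower at -0.96, while its other probe read -0.41 and was not called.

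Beside the calls for IMQ against mock, the sums above went with 0 adipocyte markers called higher and 5 lower of 6 (median change -0.90 log2 units) and 0 skeletal muscle markers higher and 4 lower of 5 (median -0.64). Over all genes 24.3% were called higher and 31.6% lower in this comparison. Mast cell markers gave 0 higher and 2 lower of 4. Of the monocyte and macrophage markers, 3 of 5 were higher and 2 lower, with sums of 24266 to 25244 in IMQ and 18818 to 20875 in mock skin. Of 5 endothelial markers 0 were higher and 3 lower, with sums of 8813 to 9219 in IMQ and 13928 to 14971 in mock skin. Of 5 hair follicle markers 0 were higher and 5 lower, and of 6 fibroblast markers 2 were higher and 4 lower. T cell markers gave 3 higher and 0 lower of 5, and neutrophil markers 2 higher and 1 lower of 6. Dendritic cell markers gave 2 higher and 2 lower of 6, and B cell markers 1 and 1 of 4. Among the T cell markers, Cd8a read 1.70 on its brightest probe and 0.50 on its other, which was not called (adjusted p = 0.0527). The endothelial marker Pecam1 was not called on its brightest probe, while its others read -1.73 and -1.21 and were called lower. Keratinocyte markers gave 2 higher and 1 lower of 6, with sums of 1139093 to 1199850 in IMQ and 975350 to 1093177 in mock skin. Of those 2 higher calls, that of Trp63 rests on the choice of probe, since its brightest probe read 0.42 and its others -0.21 and -1.34 (adjusted p = 0.0513 and 1.67e-05). The keratinocyte sums weigh mostly the brightest genes, Krt10 and Krt14, and neither was called.

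Beside the calls for IMQ+vanillin against mock, neutrophil markers were higher for 4 of 6 and lower for 0 (median change 0.75 log2 units). Adipocyte markers gave 0 higher and 3 lower of 6 (median -0.41), hair follicle markers 0 and 3 of 5 (median -0.29), and skeletal muscle markers 0 and 1 of 5 (median -0.17). Endothelial markers gave 1 higher and 2 lower of 5, mast cell markers 0 and 2 of 4, and fibroblast markers 2 and 2 of 6. Monocyte and macrophage markers gave 2 higher and 1 lower of 5, and keratinocyte markers 2 and 0 of 6. Dendritic cell markers gave 1 and 1 of 6, T cell markers 1 and 0 of 5, and B cell markers 0 and 0 of 4. Other probes differed from the brightest for some genes. Pecam1 and Trp63 were not called on theirs, while others of Pecam1 read -0.69 and -1.11 and 1 of Trp63 read -1.35, all called. Cd8a was called higher at 0.74, while its other probe read 0.08 and was not called. Over all genes 13.4% were called higher and 15.9% lower in this comparison.

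Among the remaining IkB genes Nfkbid, like Nfkbia, was called higher in IMQ than in mock skin and lower in IMQ+vanillin than in IMQ skin. Nfkbid encodes IkBNS, an atypical nuclear IkB protein like that of Bcl3. Its intensity was 3034, 2805 and 2010 in IMQ+vanillin skin, 4625, 4742 and 4937 in IMQ skin, and 1695, 2185 and 1932 in mock skin. The IMQ arrays were the highest, and IMQ+vanillin and mock arrays overlapped. The changes were 1.31 ± 0.16 log2 units (SE, adjusted p = 0.000213) and -0.89 ± 0.16 (SE, adjusted p = 0.00394). IMQ+vanillin against mock read 0.42 (adjusted p = 0.0893) and was not called.

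The gene of another nuclear IkB protein, Nfkbiz, was higher in each step, by 0.56 ± 0.11 for IMQ against mock and 0.43 ± 0.11 for IMQ+vanillin against IMQ (SE, adjusted p = 0.00232 and 0.0138). Nfkbie, a cytoplasmic inhibitor, was called higher in IMQ than in mock skin at 1.20 ± 0.36 (SE, adjusted p = 0.0195) on a dim probe at percentile 12.4, and read -0.56 for IMQ+vanillin against IMQ (adjusted p = 0.233). Nfkbib, Nkiras1 and Nkiras2, the last 2 encoding small GTPases that bind IkB proteins, read 0.22, 0.57 and -0.27 for IMQ against mock and were not called. For IMQ against mock this list of 6 gave 3 higher, 0 lower and 3 not called, with a median of 0.56. For IMQ+vanillin against IMQ it gave 1 higher, 1 lower and 4 not called, with a median of -0.39. With each gene taken by its brightest probe, 24.3% of 17742 genes were called higher and 31.6% lower for IMQ against mock, and 26.2% and 16.6% for IMQ+vanillin against IMQ. The medians over all genes were -0.06 and 0.06.

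Receptors that feed NF-kB were called in both directions, as genes over the whole array were. For IMQ against mock 3 of 11 were higher, 5 lower and 3 not called, with a median of 0.02. The share of all genes was 24.3% higher and 31.6% lower there, and 26.2% and 16.6% for IMQ+vanillin against IMQ. These shares also stand beside the counts of kinases and adaptors and of other negative regulators below. Ltbr, the lymphotoxin beta receptor that drives the slower route, had intensities of 3390, 3241 and 3391 in IMQ skin and 819, 764 and 1077 in mock skin, a rise of 1.93 ± 0.13 log2 units (SE, adjusted p = 1.06e-05). IMQ+vanillin arrays lay between those groups at 1261, 1342 and 1239, and Ltbr was lower than in IMQ skin at -1.38 ± 0.13 (SE, adjusted p = 0.000564). The interleukin-1 receptor gene Il1r1 was higher in IMQ than in mock skin by 1.28 ± 0.13 and the tumour necrosis factor receptor gene Tnfrsf1a by 0.95 ± 0.15. Tnfrsf1a was lower in IMQ+vanillin than in IMQ skin, at -0.64 ± 0.15 (SE, adjusted p = 0.0118).

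Tnfrsf13c, the B cell receptor for the survival factor BAFF, was lower in IMQ than in mock skin, at -1.32 ± 0.16 log2 units. In IMQ+vanillin skin it was higher than in IMQ skin by 0.71 ± 0.16, as was Tnfrsf11a, the receptor RANK, by 0.87 ± 0.16. Tnfrsf12a was lower on both of its probes in IMQ than in mock skin, at -0.66 and -0.88. The brighter probe of Cd40 read -1.33 for IMQ against mock and the other read -0.01 (adjusted p = 0.970), so the call of Cd40 rests on the choice of probe. The brightest probe of Il1rap, the accessory chain of the interleukin-1 receptor, read 0.44 for IMQ+vanillin against IMQ (adjusted p = 0.0393), while its others read 0.01 and 0.14 and were not called. For IMQ+vanillin against IMQ this list gave 5 higher, 2 lower and 4 not called, with a median of 0.12.

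Among 25 measured kinases and adaptors 8 were higher, 9 lower and 8 not called for IMQ against mock, with a median of -0.09. Traf6, the ubiquitin ligase of the toll-like and interleukin-1 route, was higher in IMQ than in mock skin by 1.21 ± 0.11 log2 units (SE, adjusted p = 4.74e-05). Irak2, a kinase of the same route, was higher by 1.14 ± 0.10, and Irak3, a brake on that route, by 0.93 ± 0.09. Card14, a keratinocyte scaffold protein whose activating variants cause psoriasis in humans, was higher by 0.51 ± 0.09 (SE, adjusted p = 0.00143). Traf1, an adaptor of tumour necrosis factor receptors and a known NF-kB target, was lower at -0.82 ± 0.08. Of the probes of Ripk1, 1 read 0.48 and the other -0.58, both called, so no direction is given for it. The count above takes its brightest probe and so holds Ripk1 as higher.

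For IMQ+vanillin against IMQ the kinases and adaptors gave 9 higher, 5 lower and 11 not called, with a median of 0.03. Traf1 was higher with vanillin by 0.88 ± 0.08 log2 units (SE, adjusted p = 0.000539), the scaffold gene Card10 by 0.60 ± 0.10 and the kinase gene Map3k7 (TAK1) by 0.65 ± 0.13. Map3k14, the kinase of the slower route, was lower in IMQ+vanillin than in IMQ skin at -0.66 ± 0.13 (SE, adjusted p = 0.00491), and -1.19 ± 0.13 against mock. Btrc, which marks phosphorylated IkB alpha for degradation, was lower at -0.99 ± 0.19 on a dim probe at percentile 30.0, while its other probe read -0.41 (adjusted p = 0.108). The probes of Tirap read -0.79 and 0.41, both called, so no direction is given for it. The count above takes its brightest probe and so holds Tirap as lower.

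The other negative regulators gave 5 higher, 4 lower and 1 not called of 10 for IMQ against mock, with a median of 0.04. Otulin, a deubiquitinase that removes linear ubiquitin chains, had the largest change among them. The intensity of Otulin was 451, 487 and 435 in IMQ+vanillin skin, 2162, 2272 and 2336 in IMQ skin, and 129, 199 and 265 in mock skin. The groups did not overlap, and the gene rests on 1 probe annotated with its older symbol. The mock and IMQ+vanillin values lay under the array medians. Otulin was higher in IMQ than in mock skin by 3.57 ± 0.22 log2 units (SE, adjusted p = 7.88e-06) and lower in IMQ+vanillin than in IMQ skin, at -2.30 ± 0.22 (SE, adjusted p = 0.000589).

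Zc3h12a, an RNase that degrades cytokine transcripts, was higher in IMQ than in mock skin by 0.84 ± 0.09 log2 units, while Otud7b, a deubiquitinase, was lower at -0.53 ± 0.08 and Tax1bp1, an adaptor of the Tnfaip3 product, at -0.48 ± 0.07. With vanillin Tnip1, which binds the Tnfaip3 product, was higher than in IMQ skin by 0.61 ± 0.12 (SE, adjusted p = 0.00528). Tax1bp1 was higher too, by 0.40 ± 0.07, as was Tnip2, another partner of the Tnfaip3 product, by 0.39 ± 0.10, and Otud7b was lower at -0.42 ± 0.08. The ubiquitin ligase gene Itch was lower in IMQ than in mock skin, at -0.62 ± 0.15, and higher in IMQ+vanillin than in IMQ skin by 0.67 ± 0.15. Rnf11, which works with it and the Tnfaip3 product, was higher in IMQ than in mock skin by 0.45 ± 0.11. For IMQ+vanillin against IMQ the list gave 4 higher, 2 lower and 4 not called, with a median of 0.12.

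Against mock, IMQ+vanillin skin gave 3 higher and 2 lower of 11 receptors (median 0.14), 6 higher and 5 lower of 25 kinases and adaptors (median 0.17), 3 higher and 1 lower of 10 other negative regulators (median 0.27), and 1 higher and 1 lower of 6 other IkB and IkB-binding genes (median 0.29). The count of kinases and adaptors holds Ripk1 as higher by its brightest probe (0.64), while its other probe read -0.57 (adjusted p = 0.00454). Irak3 was higher by 0.95 ± 0.09 and Zc3h12a by 1.07 ± 0.09 log2 units. Chuk, which encodes an IkB kinase that also drives the slower route, was lower at -0.70 ± 0.10 (SE, adjusted p = 0.00112). In that comparison 13.4% of all genes were called higher and 15.9% lower, with a median of 0.01.

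Further NF-kB target genes were more often called higher than lower in each comparison. Of 29 measured, 14 were higher, 3 lower and 12 not called for IMQ against mock (median 0.26), 14 higher, 5 lower and 10 not called for IMQ+vanillin against IMQ (median 0.35), and 18 higher, 1 lower and 10 not called for IMQ+vanillin against mock (median 0.61). Over all genes 24.3% were called higher and 31.6% lower for IMQ against mock, and 13.4% and 15.9% for IMQ+vanillin against mock. For IMQ+vanillin against IMQ the shares were 26.2% and 16.6%, so all genes also leaned higher there. Lcn2, which encodes the iron-sequestering antibacterial protein lipocalin, was higher in IMQ than in mock skin by 2.20 ± 0.10 log2 units (SE, adjusted p = 1.46e-06). In IMQ+vanillin skin Lcn2 was higher than in IMQ skin by a further 0.61 ± 0.10 (SE, adjusted p = 0.00266). The chemokine gene Ccl20 was higher in IMQ than in mock skin by 1.36 ± 0.10 (SE, adjusted p = 1.65e-05) and lower in IMQ+vanillin than in IMQ skin, at -0.76 ± 0.10. Cd44, a hyaluronan receptor, was higher in IMQ than in mock skin by 1.57 ± 0.12 log2 units, and lower in IMQ+vanillin than in IMQ skin at -0.80 ± 0.12. The stress response gene Ier3 was higher in IMQ than in mock skin by 0.96 ± 0.08, the cytokine gene Il1b by 1.05 ± 0.11 and the cytokine subunit gene Ebi3 by 0.86 ± 0.08.

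With vanillin the neutrophil attractant gene Cxcl2 had intensities of 1544, 1610 and 1311 in IMQ+vanillin skin, against 144, 187 and 145 in IMQ skin and 91, 75 and 56 in mock skin. The 3 groups did not overlap, and the IMQ and mock values lay under the array medians. The change against IMQ was 3.24 ± 0.19 log2 units (SE, adjusted p = 0.000117). Mmp9, a matrix protease, was higher in IMQ+vanillin than in IMQ skin by 0.75 ± 0.10 log2 units (SE, adjusted p = 0.00163), and the dendritic cell marker Cd83 by 0.77 ± 0.09 (SE, adjusted p = 0.000969). Against mock, IMQ+vanillin skin was higher in Il1b by 1.64 ± 0.11 and in the neutrophil attractant gene Cxcl1, on a probe at percentile 31.0, by 1.67 ± 0.17. Targets were thus called in both directions for IMQ+vanillin against IMQ, as among the members with Ptgs2 and Nfkbia.

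**Figure D4:**
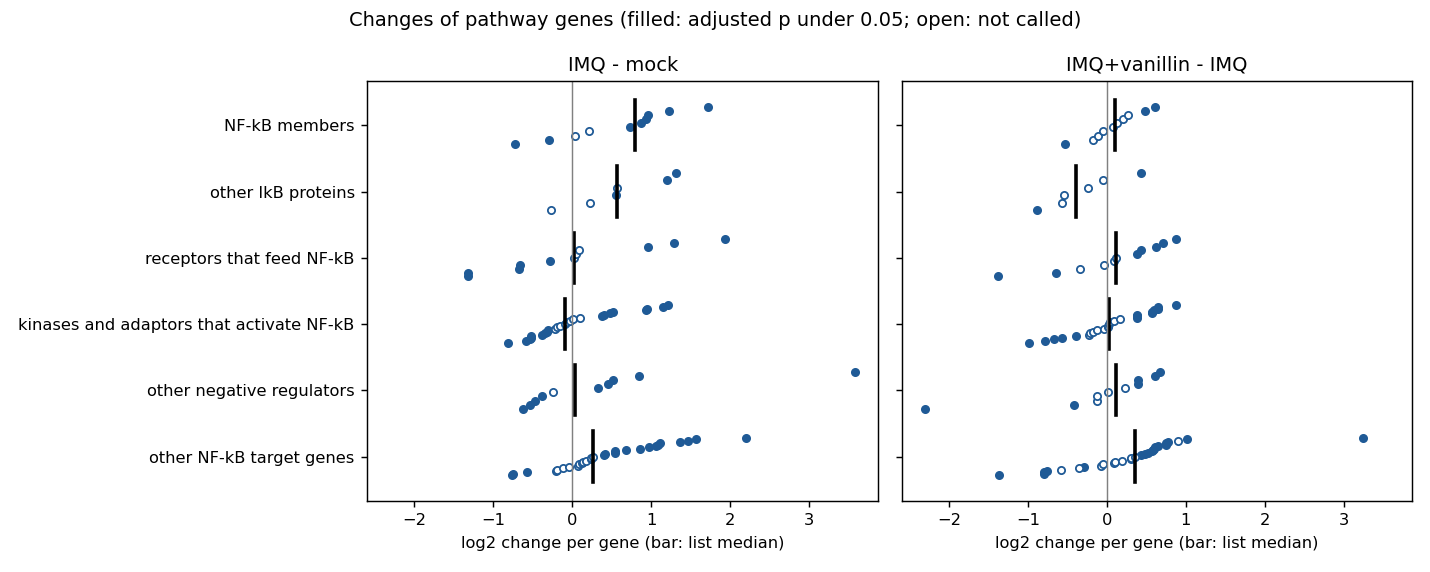
Log2 change of each measured gene (points; filled where called at an adjusted p under 0.05) with the median of the list (bar), for IMQ minus mock (left) and IMQ+vanillin minus IMQ (right). The medians for IMQ minus mock are 0.79 for the members and 0.56 for the other IkB proteins, while those of receptors, kinases and other negative regulators lie within 0.1 of zero.

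Across the array, the genes most like a member were sought for Bcl3 and Ptgs2, the members with the widest range of group means (1.72 and 1.33 log2 units). Among 10622 genes brighter than the median probe, Fxr1, Blmh and Rabgap1l had the highest Pearson correlation of log2 intensity with Bcl3 over the 9 arrays, each 0.997. For Ptgs2 they were the late cornified envelope gene Lce3b at 0.980, Smad2 at 0.978 and the small proline-rich gene Sprr2i at 0.977. Lce3b had mean log2 intensities of 12.02 in IMQ+vanillin, 10.47 in IMQ and 8.63 in mock skin. The arrays share their 3 groups, and the correlations mostly describe the group means.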

How the data were processed

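Of tools, the submitters' processing notes list limma without a version. Background correction, filters and the scanner model were not stated in the sources used. The deposited table holds linear probe intensities; the sorted values of its columns differed by at most 3.46% above 100 units, so the authors' values had been equalised between arrays. Values under 1 were set to 1 and log2 was taken. A linear model with 1 mean per group was fitted to all 9 arrays with limma 3.58.1 under R 4.3.3, variances were moderated by its eBayes defaults, and p-values were adjusted by Benjamini-Hochberg over 26423 probes; the procedure was tested on simulated data. Platform annotation gave 20377 probes 1 symbol, 0 several and 6046 none. Through RefSeq (GRCm38.p6) 18213 symbols were current, 2126 were updated and 38 kept, which made 17742 genes. Listed genes were read from their brightest probe. Of 14 pathway genes with several probes, 7 had probes of unlike call for IMQ against mock and 11 for IMQ+vanillin against IMQ. Members have 1 probe each, so no such check exists for them. The members and lists were chosen with earlier results of these data known. All members were named. From each list up to 6 genes per comparison were named by smallest p, and for the members with the widest range of group means the 3 most correlated genes. Replicate numbers did not pair the arrays: correlations of deviations between arrays of the same number ran from -0.265 to 0.222. Alternatives changed the normalization, filter, offset, prior, array weights, arrays in the fit and replicate block, and left out each array in turn.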

Additional observations from a re-analysis of the deposited data

How the results depend on the processing

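Each of the 30 changes (10 members in 3 comparisons) was recomputed under 16 alternatives, and 455 of the 480 values kept their side of the threshold. That count includes uncalled changes near zero that changed sign. Rela for IMQ against mock read 0.04 and at lowest -0.03, and Rel for IMQ+vanillin against IMQ 0.08 and at lowest -0.01. No called change reversed. Quantile normalization could alter little, since the deposited values were already equalised between arrays. Leaving out an array outside a comparison kept the size of its changes and could alter only the p-values. Such values are a weaker check than the rest of the 480. Array weights raised the calls over all probes from 14157 to 19830 for IMQ against mock and from 7045 to 10260 for IMQ+vanillin against mock. For IMQ+vanillin against IMQ they raised them from 10898 to 16208, and the intensity trend and robust prior to 11217. The members called for IMQ+vanillin against IMQ were 3, but 5 with an intensity trend and robust prior and 5 with array weights, which added Nfkb1 (adjusted p = 0.0278 and 0.0188) and Rela (0.0414 and 0.00275). Rela was also called in that comparison without IMQ+vanillin replicate 3 (0.0261), and Nfkb1 with the lowest 25% of probes left out (0.0476) and without mock replicate 1 (0.0471). Leaving out 1 array gave 7 to 8 called members for IMQ against mock, 3 to 4 for IMQ+vanillin against IMQ and 7 to 10 for IMQ+vanillin against mock. Over all probes it gave 11551 to 15901, 6576 to 12805 and 5507 to 7767 calls. The 10898 calls over all probes for IMQ+vanillin against IMQ fell to 6923 without IMQ replicate 1 and 6576 without IMQ replicate 3, while 3 members stayed called in each. Rela was called higher in IMQ+vanillin than in mock skin with the lowest 25% left out (0.0438), the trend and robust prior (0.0343), array weights (0.00874), and without mock replicate 1 (0.0471) or IMQ+vanillin replicate 3 (0.0289). Relb against mock was called with array weights (change -0.29, adjusted p = 0.0126) and without mock replicate 1 (-0.28, 0.0320) for IMQ+vanillin. The replicate block gave 7, 3 and 8 called members in the 3 comparisons, and Relb for IMQ against mock was the 1 member whose call it changed. Samples sharing a number showed no sign of deviating together, though 3 arrays a group cannot exclude it. The mean over several probes could not be run for the members, which have 1 each. The cause of these differences was not tested. With 3 arrays a group the precision is limited throughout, and dim probes such as Rel carry less signal over background.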
